A study of Mus musculus with 6 samples.

Results

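The expression of 10 genes of dendritic cells and Langerhans cells was followed in RNA-seq counts from mouse esophagus: Itgax, Flt3, Zbtb46, Xcr1, Clec9a, Ccr7, Fscn1, Cd209a, Cd207 and Clec10a. They were chosen by symbol, and all 10 were found among the 54232 gene IDs of the files. The tissue came from mice that drank 4-nitroquinoline 1-oxide (4-NQO), a carcinogen that gives squamous tumors of the esophagus, at 100 µg/ml for 16 weeks from 8 weeks of age and then plain water for 12 weeks. All mice had this exposure, in both groups. The tissue was enriched for invading cells, and its polyA RNA was sequenced. Over the 2.5 weeks before sacrifice 10 µg of antibody was given 2 times weekly into the abdominal cavity. The treated group received DTA-1, which activates GITR, a costimulatory receptor of T cells, and the control group an isotype control antibody. Each group has 3 libraries. No label ties a library to its own animal, so the p-values reflect variation among libraries, some of which may be technical. The labels give neither strain nor sex. The design holds 1 comparison, DTA-1 against isotype. Below, series of 3 values run in the order of replicates 1, 2 and 3.

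Dendritic cells take up antigen in tissues and present it to T cells. Classical dendritic cells fall into a type 1 lineage, which cross-presents antigen to CD8 T cells, and a type 2 lineage, which mainly presents to CD4 T cells. Langerhans cells are the antigen-presenting cells within stratified epithelia, the esophagus included, and share features of both macrophages and dendritic cells. On maturation these cells leave the tissue through lymphatic vessels for the draining lymph node. Several of these genes are also used by other cells: Itgax by some macrophages, Zbtb46 by endothelium, Fscn1 by carcinoma cells and nerve, Clec10a by macrophages, and Ccr7 by T and B cells. In bulk tissue, fewer cells of a type and less RNA per cell cannot be told apart.

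The libraries held 23147873 to 29065162 counts, and 3 reads correspond to 0.108 to 0.141 CPM, counts per 1000000 reads after TMM scaling, which allows for differences in RNA composition. The libraries differed in tissue make-up as well as in treatment. Isotype replicate 1 stood apart as rich in leukocyte transcripts: all 9 genes of a pan-leukocyte list were highest there, and the list summed to 317.7 CPM against 152 and 59.6 in isotype replicates 2 and 3 and 67.6 to 125 in DTA-1 libraries. Keratins and other genes of squamous epithelium were present throughout, but the list of 16 summed to 35254 to 42324 CPM in isotype libraries and to 30602, 8860 and 9868 CPM with DTA-1. Striated muscle genes summed to 59502 to 125023 CPM with isotype and 130707 to 189833 CPM in DTA-1 libraries. Red cell genes summed to 2899 CPM in DTA-1 replicate 2 and to 85.1 to 172 CPM elsewhere. The part that these differences in make-up play in the values below was not tested, except where a ratio to another gene or list is given.

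The promoters of Itgax and Cd207 are shown because these 2 had the largest log2 fold changes of the 8 genes tested. Promoter windows for 8 of the 10 genes were found in RefSeq on GRCm38.p6, and each was cut to 250 bases before the start site and 30 from it on. The Itgax window lies at chr7:128129300-128129579 on the plus strand and that of Cd207 at chr6:83677828-83678107 on the minus strand. Both are written 5′ to 3′, with capitals marking matches on either strand to GAGGAA, a core of sites for the myeloid factor PU.1, or to TGTGGT, a core of sites for RUNX factors.
Itgax: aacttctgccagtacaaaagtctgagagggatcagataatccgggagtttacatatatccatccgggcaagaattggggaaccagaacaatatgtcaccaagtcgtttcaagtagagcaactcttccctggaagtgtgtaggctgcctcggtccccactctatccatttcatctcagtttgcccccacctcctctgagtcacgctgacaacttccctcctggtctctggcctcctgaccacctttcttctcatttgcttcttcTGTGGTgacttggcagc
Cd207: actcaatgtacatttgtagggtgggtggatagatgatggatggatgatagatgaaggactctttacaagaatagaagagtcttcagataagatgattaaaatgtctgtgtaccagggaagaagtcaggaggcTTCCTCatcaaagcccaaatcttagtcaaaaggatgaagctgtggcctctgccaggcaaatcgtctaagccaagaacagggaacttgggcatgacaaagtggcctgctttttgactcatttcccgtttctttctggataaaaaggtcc
Itgax held 1 RUNX match, starting 13 bases after the start site, and Cd207 held 1 PU.1 match on the opposite strand. Such matches are common: 26.0% of 32851 promoter windows of this length held the PU.1 letters and 15.6% the RUNX letters, so they describe the sequences and nothing more.

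Most of the 10 genes were scarce. Per kilobase of exon, Fscn1 was the most abundant at 18.9 CPM per kb (mean of 6 libraries), followed by Clec10a at 1.65, Cd207 at 1.43, Itgax at 1.27 and Zbtb46 at 0.634 CPM per kb. Cd209a (0.302), Ccr7 (0.277), Clec9a (0.182), Flt3 (0.119) and Xcr1 (0.0829 CPM per kb) came last. Between neighbors in this order the ranges over libraries overlapped, except between Fscn1, which lay between 10.1 and 43.2 CPM per kb, and Clec10a, which lay between 0.747 and 3.16.

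No member passed edgeR's quasi-likelihood test, as was true of all 15763 genes tested (0% called, smallest adjusted p 0.39). Xcr1 and Ccr7 lay under the filter on low counts, so 8 of the 10 were tested. Of these 8, 5 had negative fold changes with DTA-1 and 3 positive ones, against 52.9% negative among all tested genes, and their median log2 fold change was -0.66 against -0.03 for all genes. At an unadjusted p under 0.05 there were 2 of 8, Itgax and Cd207, both lower with DTA-1, where 12.7% of all tested genes reached that level and 7.52% did so on the lower side. Leaving out isotype replicate 1 left 1 of 8, Cd207, against 8.21% of all genes, and leaving out isotype replicate 3 gave 4 of 9 against 17.8%. Leaving out DTA-1 replicate 1 gave 0 of 10 against 24.6%, and limma-voom gave 0 of 8 against 13.9%. Without DTA-1 replicate 1 edgeR called 3.69% of genes, none of the 10 among them. None of the 10 separated the groups in CPM, although 9.38% of tested genes had every DTA-1 library below every isotype library and 8.6% had every one above.

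**Figure D1:**
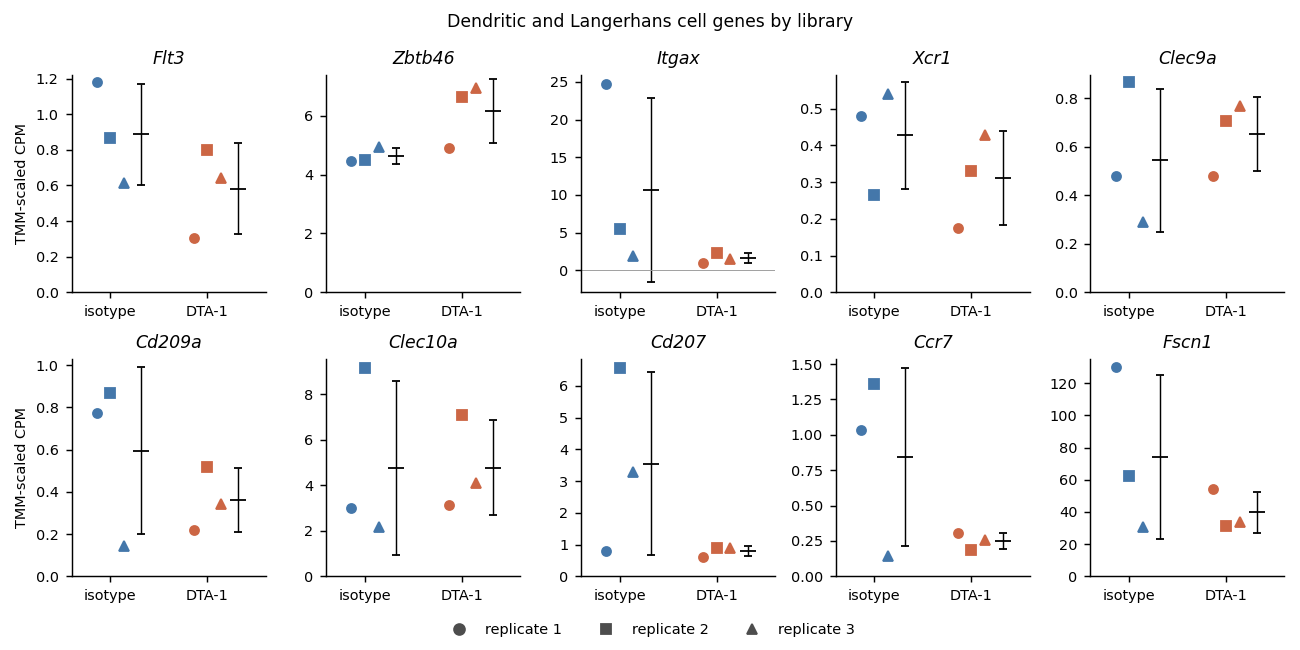
Expression of the 10 genes in TMM-scaled CPM (vertical axes, linear, different for each gene) in isotype (blue) and DTA-1 (orange) libraries, with symbols for replicates 1 to 3 and the mean ± SD (n = 3) in black. The high Itgax value is isotype replicate 1 and the high Cd207 values are isotype replicates 2 and 3, while the DTA-1 libraries lie close together for both genes.

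Itgax encodes CD11c, the integrin alpha chain long used to identify dendritic cells (ENSMUSG00000030789, chromosome 7, 128129547 to 128150657, GRCm38). It had 669, 145 and 51 reads with isotype and 22, 48 and 35 reads with DTA-1. On the CPM scale the isotype libraries stood at 24.7, 5.47 and 1.84 and the DTA-1 libraries at 0.957, 2.26 and 1.497. Isotype replicate 1 was thus 4.51 times the next library, and the lowest isotype library lay below the highest DTA-1 library. The means were 10.7 ± 12.3 CPM with isotype and 1.57 ± 0.656 CPM with DTA-1 (SD, n = 3 each), and the log2 fold change was -2.76 ± 0.93 (SE), with an adjusted p of 0.39 in edgeR. DESeq2 called Itgax lower with DTA-1 (adjusted p = 0.049), its sole call among the 10 genes, where it called 1.12% of 16084 genes. Without isotype replicate 1 the edgeR log2 fold change was -1.20 ± 0.60 and DESeq2's adjusted p was 0.558. Of DESeq2's refits without 1 library each, only the one without isotype replicate 3 kept the call (adjusted p = 0.000709, with 6.1% of genes called), and the adjusted p in the other refits ran from 0.0516 to 0.558.

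Isotype replicate 1 was also the library richest in leukocyte RNA, so Itgax was set against Ptprc, which encodes CD45, the surface marker of all leukocytes. Ptprc itself stood at 27.6, 14.8 and 5.34 CPM with isotype and at 6.26, 9.99 and 10.2 CPM with DTA-1, and the groups overlapped. Per 100 Ptprc reads there were 89.4, 36.9 and 34.5 Itgax reads with isotype, and 15.3, 22.6 and 14.7 with DTA-1. On this scale, which needs no library scaling, the 3 DTA-1 libraries were all below the lowest isotype library, as for 0.133% of the 15763 tested genes (21 genes). That share depends on the denominator, since Ptprc was highest in isotype replicate 1, which lowers ratios to it there. Relative to Ptprc 1.95% of genes had every DTA-1 library above, and in CPM the shares were 9.38% below and 8.6% above. For Itgax the exact two-sided permutation test gave p = 0.1, the smallest that 3 against 3 libraries allow. The log2 ratio of the group means was -1.61, and it was -1.02 without isotype replicate 1. With the sum of 9 pan-leukocyte genes, Ptprc among them, in place of Ptprc alone the groups were separated in the same direction. There were 77.6, 35.9 and 30.9 Itgax reads per 1000 with isotype and 14.1, 21.0 and 12.0 with DTA-1. Per 1000 reads of a macrophage and monocyte list, a scale added after the data were seen, Itgax had 21.7, 10.5 and 8.02 reads with isotype and 3.72, 1.6 and 2.34 with DTA-1, again without overlap. The sum of that list was itself highest in DTA-1 replicate 2, at 1413 CPM, which lowers the ratio there. For the pan-leukocyte and macrophage scales the share of all genes that separate the groups was not computed. Against the squamous list the groups overlapped. All 10 genes were set against Ptprc in this way, and the groups separated for 2, Itgax and Clec9a.

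Cd207 encodes langerin, the mannose-binding lectin that forms the Birbeck granules of Langerhans cells and is also found on some dendritic cells (ENSMUSG00000034783, chromosome 6, 83671215 to 83677857). It had 22, 174 and 91 reads with isotype and 14, 19 and 21 reads with DTA-1. In CPM these were 0.811, 6.56 and 3.28 with isotype and 0.609, 0.895 and 0.898 with DTA-1. Isotype replicates 2 and 3 were high, whereas isotype replicate 1, the leukocyte-rich library, lay within the DTA-1 range. The means were 3.55 ± 2.89 CPM with isotype and 0.801 ± 0.166 CPM with DTA-1 (SD, n = 3 each), a log2 fold change of -2.14 ± 0.73 (SE) with an adjusted p of 0.39 in edgeR and 0.107 in DESeq2. Without isotype replicate 1 the log2 fold change was -2.60 ± 0.46, with an adjusted p of 0.552 in edgeR and of 0.00055 in DESeq2, which called 1.07% of genes in that refit. Without isotype replicate 2 it was -1.34 ± 0.67.

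Langerhans cells sit in the epithelium, whose transcripts summed to less in all 3 DTA-1 libraries. Per 1000000 reads of the squamous list there were 23.0, 157 and 77.6 Cd207 reads with isotype and 19.9, 101.03 and 91.0 with DTA-1. The groups overlapped on this scale, which was added after the data were seen, and the log2 ratio of group means was -0.28 (exact two-sided permutation p = 0.9). Per 100 Ptprc reads there were 2.94, 44.3 and 61.5 Cd207 reads with isotype and 9.72, 8.96 and 8.82 with DTA-1. On that scale isotype replicate 1 lay below all 3 DTA-1 libraries, and isotype replicate 3 rather than 2 was highest. The epithelial adhesion gene Epcam, which Langerhans cells also carry, stood at 78.2, 25.0 and 25.5 CPM with isotype and 16.6, 27.0 and 6.93 CPM with DTA-1, in an order that differed from that of Cd207. It belongs to a list of 10 genes of Langerhans cells and their niche, all tested, of which 7 had negative and 3 positive fold changes (median -0.85) and none was called. Il34, an epithelial cytokine on which Langerhans cells depend, was looked at after its values were seen. It stood at 8.11, 12.7 and 18.0 CPM with isotype and at 7.57, 6.27 and 7.40 CPM with DTA-1, with an adjusted p of 0.39 in edgeR. Each DTA-1 library was below each isotype library, as for 9.38% of tested genes.

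**Figure D2:**
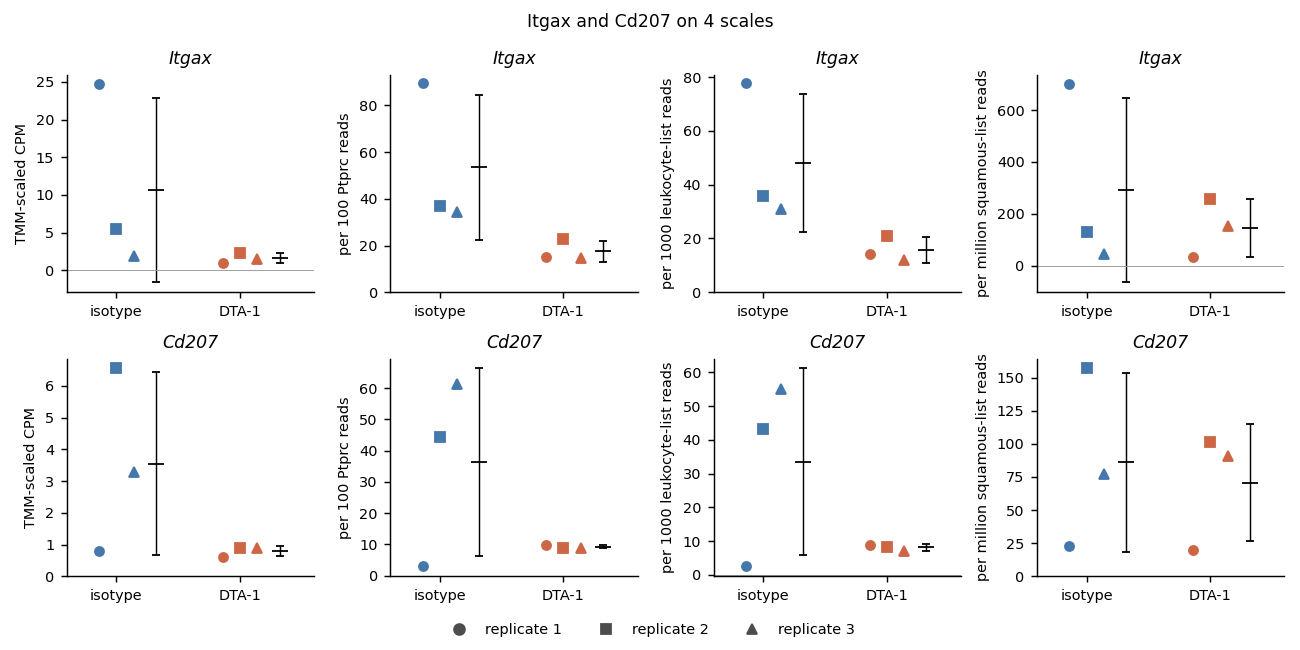
Itgax (top) and Cd207 (bottom) in TMM-scaled CPM, per 100 Ptprc reads, per 1000 reads of the pan-leukocyte list and per 1000000 reads of the squamous list (linear axes), for isotype (blue) and DTA-1 (orange) replicates 1 to 3 with the mean ± SD (n = 3) in black. Itgax separates the groups on both leukocyte scales but not in CPM or on the squamous scale, and Cd207 overlaps on all 4 scales.

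Flt3 and Zbtb46, genes shared by the classical dendritic cell lineages, had fold changes of opposite sign, and neither passed the test. Flt3, the receptor whose ligand drives dendritic cell development (chromosome 5, 147330741 to 147400489), had 32, 23 and 17 reads with isotype and 7, 17 and 15 with DTA-1. Its means were 0.887 ± 0.284 CPM with isotype and 0.582 ± 0.254 CPM with DTA-1 (SD, n = 3 each), with overlapping groups and a log2 fold change of -0.61 ± 0.49 (SE). Zbtb46, a transcription factor restricted to classical dendritic cells among mature leukocytes (chromosome 2, 181387762 to 181459426), stood at 4.46, 4.49 and 4.94 CPM with isotype and at 4.91, 6.64 and 6.93 CPM with DTA-1. It was the steadiest of the 10, its highest library being 1.55 times its lowest, and DTA-1 replicate 1 fell within the isotype range. Its log2 fold change was 0.41 ± 0.26 (SE), with an adjusted p of 0.488 in edgeR. In isotype replicate 1, where Ptprc was highest, Zbtb46 was among the lower libraries, and which library was lowest depended on the scaling (isotype replicate 1 with TMM and isotype replicate 3, at 4.71 CPM against 4.80 CPM in replicate 1, with library totals). A list of 11 genes of blood and lymphatic endothelium and of nerve all had positive fold changes (median 0.52). They summed to 250.5 to 283.9 CPM with isotype and 273.5, 381.7 and 400.2 CPM with DTA-1, and their part in the Zbtb46 levels was not tested.

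The type 1 lineage was represented by a handful of reads per library. Xcr1, the chemokine receptor that marks these cells (chromosome 9, 123852315 to 123862029), had 13, 7 and 15 reads with isotype and 4, 7 and 10 reads with DTA-1. Clec9a, a receptor for actin filaments exposed by dead cells (chromosome 6, 129408862 to 129424763), had 13, 23 and 8 reads with isotype and 11, 15 and 18 reads with DTA-1. For both genes the groups overlapped. Xcr1 was under the filter, and without a filter its log2 fold change was -0.47 ± 0.63 (SE). A count of 4 has an exact Poisson 95% interval of 1.09 to 10.2 reads and a count of 10 one of 4.80 to 18.4, for counting error alone. The log2 fold change of Clec9a was 0.26 ± 0.50 (SE), and it was -0.02 without isotype replicate 3. Per 100 Ptprc reads Clec9a stood at 1.74, 5.85 and 5.41 with isotype and at 7.64, 7.08 and 7.56 with DTA-1, so that the lowest DTA-1 library was above the highest isotype library, as for 1.95% of tested genes (exact two-sided permutation p = 0.1, the smallest possible). In CPM 8.6% of tested genes had every DTA-1 library above. On the pan-leukocyte scale, which includes Ptprc, the groups separated in the same direction. Per 1000 reads of that list Clec9a stood at 1.51, 5.69 and 4.85 with isotype and at 7.07, 6.55 and 6.16 with DTA-1. The share of all genes doing so was not computed. Against the macrophage and monocyte list the groups overlapped for Clec9a (exact two-sided permutation p = 0.8), and they also overlapped against the squamous list. The highest isotype and lowest DTA-1 values rest on 23 and 15 Clec9a reads, and a count of 20 has an exact Poisson interval of 12.2 to 30.9 reads. Clec9a shares 184 exon bases with Clec1b on the same strand, and reads there cannot be assigned with the counting rules known here. Xcl1, the ligand of Xcr1, had 1, 2 and 0 reads with isotype and 0 in each DTA-1 library.

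In a list of 10 further genes of the type 1 lineage 9 were tested, 8 with negative and 1 with a positive fold change (median -0.29). None was called. Batf3, a factor required for this lineage, averaged 0.783 ± 0.589 CPM with isotype and 0.544 ± 0.241 CPM with DTA-1 (SD, n = 3 each). Irf8, a factor of the same lineage that B cells and macrophages also use, averaged 6.19 ± 1.11 and 5.86 ± 1.62 CPM (log2 fold change -0.08 ± 0.31, SE).

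The C-type lectins of type 2 and monocyte-derived cells were both highest in isotype replicate 2. Cd209a, a mouse relative of DC-SIGN on monocyte-derived dendritic cells (chromosome 8, 3743397 to 3748984), had 21, 23 and 4 reads with isotype and 5, 11 and 8 reads with DTA-1. Its means were 0.595 ± 0.393 CPM with isotype and 0.359 ± 0.151 CPM with DTA-1 (SD, n = 3 each), with overlapping groups and a fold change of -0.72 ± 0.70 (log2, SE). Clec10a, a galactose-type lectin of dendritic cells and macrophages (chromosome 11, 70156197 to 70170834), stood at 2.99, 9.17 and 2.16 CPM with isotype and 3.13, 7.11 and 4.11 CPM with DTA-1. The group means were 4.77 ± 3.83 and 4.78 ± 2.08 CPM (SD, n = 3 each), and the log2 fold change of 0.00 ± 0.61 (SE) leaves room for changes of either sign. Mgl2, the paralog of Clec10a, went through a similar range, at 2.32, 7.73 and 2.31 CPM with isotype and 3.48, 4.10 and 6.16 CPM with DTA-1. Of the 50-base words in Clec10a transcripts 8.49% also occur in Mgl2, so a small part of the Clec10a reads could be assigned to either gene, while Cd209a shared 0% of such words with 6 other Cd209 genes. Cd209d, named after its values were seen, was likewise highest in isotype replicate 2, with 59 reads against 6 to 17 in the other libraries. Of 10 further type 2 genes 9 were tested, 4 with positive and 5 with negative fold changes (median -0.44), and none was called. Irf4, a factor of this lineage that plasma cells also use, averaged 5.47 ± 2.69 CPM with isotype and 6.26 ± 0.85 CPM with DTA-1.

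Isotype replicate 2 held the highest level of 5 of the 10 genes: Clec9a, Ccr7, Cd209a, Cd207 and Clec10a. Isotype replicate 1 held the highest of 3, Itgax, Flt3 and Fscn1. Isotype replicate 3 and DTA-1 replicate 3 held 1 each, Xcr1 and Zbtb46. At the other end, isotype replicate 3 was lowest for 5 genes and DTA-1 replicate 1 for 4. As a ratio of highest to lowest library, the spread within a group was wider with isotype for 7 genes and wider with DTA-1 for Flt3, Zbtb46 and Xcr1. By SD, Flt3 (0.284 CPM with isotype, 0.254 with DTA-1) and Xcr1 (0.145 and 0.128 CPM) were slightly wider with isotype. The highest isotype library was 13.4 times the lowest for Itgax, 9.41 times for Ccr7, 8.09 times for Cd207 and 6.01 times for Cd209a, where the DTA-1 libraries spanned 2.36, 1.62, 1.48 and 2.38 times. For Flt3, Zbtb46 and Xcr1 the isotype libraries spanned 1.92, 1.11 and 2.05 times and the DTA-1 libraries 2.63, 1.41 and 2.46 times.

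Among the genes of maturation and migration, Ccr7 and Fscn1 were high in isotype replicates 1 and 2 and low in isotype replicate 3. Ccr7, the receptor that guides mature dendritic cells to lymph nodes (chromosome 11, 99144196 to 99155077), had 28, 36 and 4 reads with isotype and 7, 4 and 6 reads with DTA-1. The means were 0.845 ± 0.628 CPM with isotype and 0.250 ± 0.0583 CPM with DTA-1 (SD, n = 3 each). It was under edgeR's filter, and without a filter its log2 fold change was -1.74 ± 0.74 (SE) with an adjusted p of 0.535. In that unfiltered fit 3 of the 10 genes had an unadjusted p under 0.05 (Itgax, Cd207 and Ccr7), against 8.74% of 29228 genes. T cell genes, another source of Ccr7, summed to 28.9, 31.9 and 14.1 CPM with isotype and 14.6, 16.3 and 10.8 CPM with DTA-1, and 11 of 12 tested had negative fold changes (median -0.83). Cd3e, a chain of the T cell receptor complex, averaged 1.09 ± 0.355 and 0.416 ± 0.198 CPM. Of 9 tested B cell genes 8 had positive fold changes (median 2.22), and Cd79a, a chain of the B cell receptor complex, had 0, 13 and 0 reads with isotype and 17, 20 and 36 reads with DTA-1. The part of T and B cells in the Ccr7 level was not tested. The ligands of Ccr7 did not share its pattern, since Ccl21a averaged 16.0 ± 2.86 CPM with isotype and 20.4 ± 5.77 CPM with DTA-1, and Ccl19 had 0 to 6 reads per library.

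Fscn1, which encodes the actin-bundling protein fascin of mature dendritic cell protrusions (chromosome 5, 142960343 to 142973185), stood at 130, 62.3 and 30.3 CPM with isotype and 54.2, 31.4 and 33.7 CPM with DTA-1. Isotype replicate 3 was below all 3 DTA-1 libraries on this scale, and the groups overlapped. The means were 74.2 ± 50.9 CPM and 39.8 ± 12.5 CPM (SD, n = 3 each). The log2 fold change was -0.90 ± 0.51 (SE), with an adjusted p of 0.445 in edgeR, and it was -0.21 ± 0.37 without isotype replicate 1. The basal keratin gene Krt5 was also highest in isotype replicate 1, at 4941 CPM, with 2945 and 1647 CPM in isotype replicates 2 and 3 and 3076, 1088 and 1204 CPM with DTA-1. The 5 genes with the pattern most like that of Fscn1 over the 6 libraries were Rgs19, Cd276, Snrpa, Cfap20 and Rnaseh2a, with Pearson's r of log2 CPM between 0.993 and 0.997. These are descriptions over 6 libraries that share their differences in make-up, picked from 15763 genes.

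Of 14 further genes of mature and migratory dendritic cells 12 were tested, 8 with negative and 4 with positive fold changes (median -0.56), and none was called. Ccl22, a chemokine that mature dendritic cells release, had 82, 72 and 49 reads with isotype and 16, 20 and 21 reads with DTA-1. The highest DTA-1 library was below the lowest isotype library in CPM, as for 9.38% of tested genes. The log2 fold change was -1.56 ± 0.37 (SE), with an unadjusted p of 0.00381 and an adjusted p of 0.39 in edgeR. Of all tested genes 12.7% had an unadjusted p under 0.05 in edgeR. As a percentage of Ptprc reads the groups overlapped for Ccl22. It stood there at 11.0, 18.3 and 33.1% with isotype and at 11.1, 9.43 and 8.82% with DTA-1. Cd83, a surface marker of maturation, averaged 3.11 ± 1.97 CPM with isotype and 1.88 ± 1.76 CPM with DTA-1, and DTA-1 replicate 3, at 3.89 CPM, was above 2 isotype libraries.

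**Figure D3:**
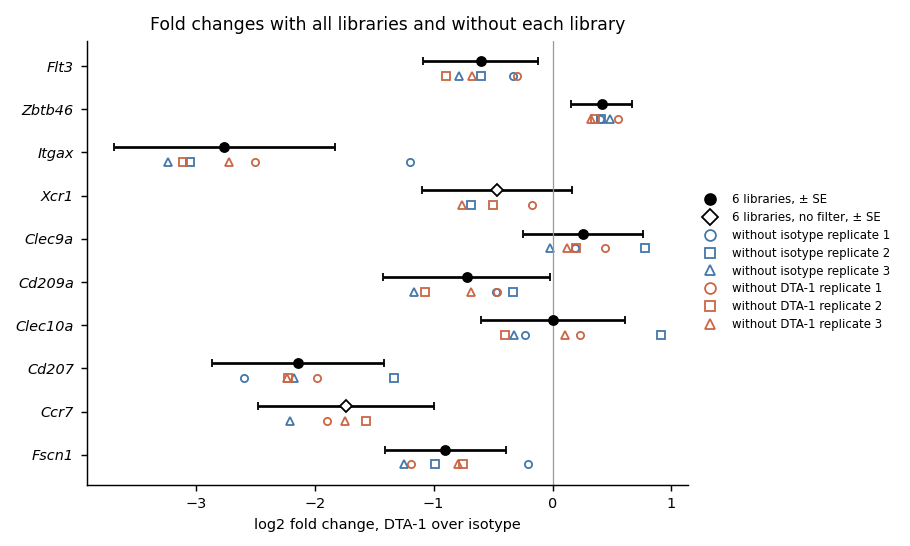
Log2 fold changes, DTA-1 over isotype, of the 10 genes with all 6 libraries (black, ± SE; open diamonds for Xcr1 and Ccr7, from the fit without a filter) and in edgeR refits without each library (open symbols, blue for a left-out isotype and orange for a left-out DTA-1 library). Itgax and Fscn1 move toward 0 without isotype replicate 1, Cd207 does so without isotype replicate 2, and Clec10a and Clec9a have points on both sides of 0.

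Genes of antigen presentation and growth factors completed the pathway. All 8 tested MHC class II genes had negative fold changes (median -0.70), none was called, and 8 of the 9 in the list were highest in isotype replicate 2. Cd74, the invariant chain, averaged 167.9 ± 65.4 CPM with isotype and 104.6 ± 44.8 CPM with DTA-1, and H2-Ab1, a class II beta chain, averaged 85.1 ± 32.9 and 46.8 ± 13.6 CPM (SD, n = 3 each). Their adjusted p in edgeR was 0.455 and 0.39. Of 11 growth factor, chemokine and receptor genes 7 were tested, 3 with positive and 4 with negative fold changes (median -0.47). Flt3l, the ligand of Flt3, stood at 3.72, 2.72 and 0.613 CPM with isotype and 1.43, 2.54 and 3.98 CPM with DTA-1, with means of 2.35 ± 1.59 and 2.65 ± 1.28 CPM. Plasmacytoid dendritic cells were barely seen: Siglech, their defining lectin, had 5, 6 and 2 reads with isotype and 1, 0 and 1 with DTA-1. Other genes of that list, such as the muscle gene Cox6a2 and the squamous gene Ly6d, belong to other tissues here as well, so its median of 0.16 is no measure of these cells.

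The dendritic cell genes were read beside a macrophage list, since some macrophages also transcribe Itgax and Clec10a. Of 12 tested macrophage and monocyte genes 10 had negative and 2 positive fold changes (median -0.37), and 9 of the 13 in the list were highest in isotype replicate 1. The summed level of the list did not share that sign, at 1136, 521.9 and 229.5 CPM with isotype and 257.4, 1413 and 638.6 CPM with DTA-1, and DTA-1 replicate 2 was the highest library. Adgre1, which encodes F4/80, averaged 10.1 ± 5.71 CPM with isotype and 9.47 ± 3.53 CPM with DTA-1 (log2 fold change -0.10 ± 0.53, SE). Csf1r, the receptor for Csf1 and Il34, averaged 40.0 ± 21.8 and 29.5 ± 12.2 CPM, a log2 fold change of -0.44 ± 0.49. All 9 pan-leukocyte fold changes were negative, and their median, -0.83, was further from 0 than the -0.66 of the 8 tested dendritic and Langerhans cell genes. The smallest adjusted p among the 9 was 0.415 in edgeR.

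**Figure D4:**
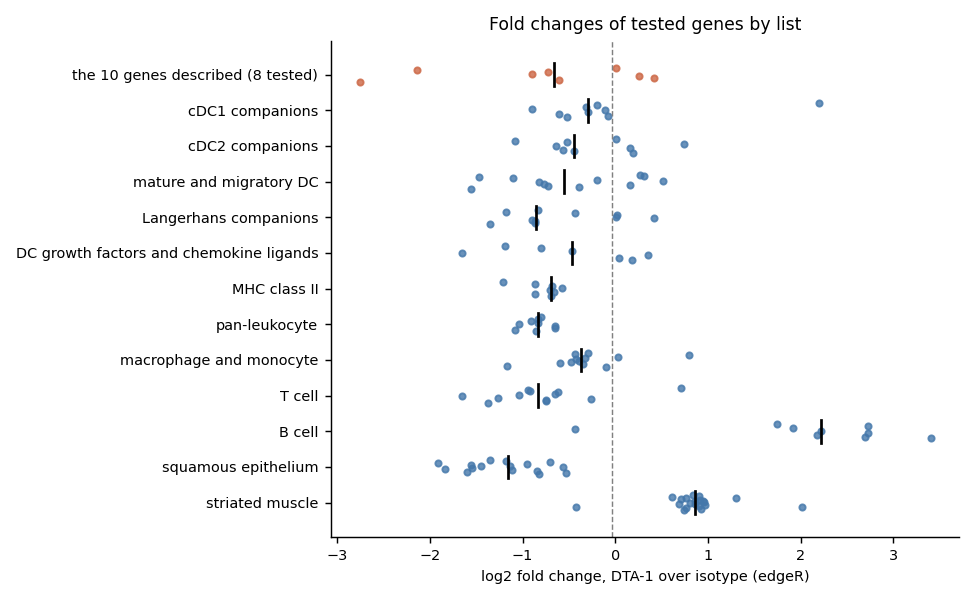
Log2 fold changes, DTA-1 over isotype, of tested genes (points) by list, with the list median (black bar) and the median of all 15763 tested genes (dashed line). The 8 tested dendritic and Langerhans cell genes (orange) spread from -2.76 to 0.41, the 9 pan-leukocyte genes lie together near -0.83, and no gene shown was called by edgeR.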

How the data were processed

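The deposited values are raw counts of reads per gene, a file for each of the 6 libraries, with no normalization by the authors. The submitters' processing notes list cutadapt (1.13), STAR, HTSeq (0.6.1p1), DESeq2 (1.14.1) and mm10, without roles or settings. Whether counting used strand is likewise unknown, so reads of overlapping or near-identical genes are uncertain. Symbols came from the reference table (153 of 54232 IDs had none) and coordinates from GENCODE M21 (GRCm38, the assembly named mm10).

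Low genes were removed by filterByExpr (at least 10 reads, 15 in total). The whole table was scaled by TMM and tested for treatment in edgeR 4.0.16 under R 4.3.3 (quasi-likelihood, robust), at a Benjamini-Hochberg adjusted p of 0.05. Standard errors are the fold change divided by the square root of F. Alternative tools were limma-voom (limma 3.58.1) and DESeq2 1.42.0. Single ratios were compared by exact two-sided permutation of the 6 libraries. Other alternatives were 3 scalings, 2 filters, removal of muscle genes, a replicate block and each library left out. The steps were tested on simulated data. Whether replicate numbers pair the libraries is not stated, and the main fit used no pairing.

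The 10 genes and all lists were chosen with earlier results of these data known. The 10 and 20 further genes were named whatever their values, with the 5 genes most like the member with the most reads. Il34, Cd209d, Cox6a2, Ly6d, Itgae, Itgam, Ctss, Csf2ra and Cd163 were named after their values were seen. Intervals and the floor of 3 reads cover counting error only.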

Additional observations from a re-analysis of the deposited data

How the results depend on the processing

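In edgeR no gene was called under the other scalings and filters, with muscle genes removed, with the replicate block, or by limma-voom (2006 genes had an unadjusted p under 0.05 in edgeR and 2193 in limma-voom). DESeq2 called 180 genes, 179 with its filtering set at 0.1, an alternative added after the data were seen like its refits. Without single libraries edgeR called 0 to 601 genes, the 601 without DTA-1 replicate 1 and 0 in the other refits, and DESeq2 called 41 to 2449, namely 180, 56 and 896 after leaving out isotype replicates 1, 2 and 3 and 2449, 41 and 41 after leaving out the DTA-1 libraries in turn. None of the 10 genes was among the 601. Scaling by library totals moved the median of all genes from -0.03 to -0.19.

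The median of the tested dendritic and Langerhans cell genes ranged from -1.16 to -0.28 without single libraries (without isotype replicates 3 and 1), was -0.45 with a stricter filter that kept 4 of the 10, and was negative in every setting run. Itgax was negative in every setting, with DESeq2 calls on all libraries (0.049, and 0.0466 with filtering at 0.1) and without isotype replicate 3. The direction of Clec10a depended on the setting: it was -0.23 with library totals (and -0.794 CPM as a difference of means), -0.0068 without a filter, and -0.40 to 0.91 without single libraries in edgeR and -0.39 to 0.92 in DESeq2, negative without isotype replicates 1 (-0.23 in edgeR, -0.21 in DESeq2) and 3 (-0.32, -0.31) and DTA-1 replicate 2. Clec9a ran from -0.023 to 0.78 in edgeR and -0.012 to 0.79 in DESeq2, negative without isotype replicate 3. The cause was not tested.

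As log2 ratios to Ptprc, Flt3 ran from -0.44 to 0.34, Xcr1 from -0.80 to 0.96, Fscn1 from -0.59 to 0.30 and Cd209a from -0.15 to 0.54 without single libraries, against -0.17, -0.41, 0.05 and 0.08 with all. Negative values came for Fscn1 without isotype replicate 2 (-0.05) and DTA-1 replicate 1 (-0.59), and for Cd209a without isotype replicates 1 (-0.09) and 3 (-0.11) and DTA-1 replicate 2. Flt3 and Xcr1 turned positive without isotype replicate 3 and against the squamous list (1.27 and 1.40), and Fscn1, Cd209a and Clec10a negative against the macrophage list (-0.36, -0.77 and -0.33), both lists added after the data were seen. Itgax, Cd207 and Ccr7 were negative against all 4 denominators. Zbtb46 and Clec9a were positive, but fell from 0.62 and 0.78 against Ptprc to 0.02 and 0.09 against the macrophage list.

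The labels do not say whether replicate numbers pair the libraries. Deviations of same-numbered libraries correlated at 0.0167, -0.333 and -0.0864, and those of differently numbered libraries at -0.179 to 0.364. With 3 libraries per group that differ in tissue make-up, these values cannot decide on pairing. With the replicate block the median of the 8 tested genes was -0.58, and Itgax and Cd207 stood at -1.97 and -1.76 (adjusted p = 0.485 and 0.475 in edgeR). The counts per library limit Flt3, Xcr1, Clec9a, Cd209a and Ccr7, each with 36 reads or fewer in any library.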

Other observations

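Itgae, which encodes CD103 of some dendritic cells and of T cells within epithelia, was looked at after its values were seen and had, like Cd207, its highest level in isotype replicate 2. It stood at 0.958, 2.90 and 1.52 CPM in isotype and 0.870, 0.942 and 1.07 CPM in DTA-1 replicates 1, 2 and 3, so that isotype replicate 1 lay within the DTA-1 range for both genes. The myeloid genes Itgam, Ctss and Csf2ra, also picked after their values were seen, were highest in isotype replicate 1, as Itgax was. So were all 9 pan-leukocyte genes and 9 of the 13 macrophage and monocyte genes. Cd163, a macrophage gene picked in the same way, was highest in isotype replicate 2, at 38.2 CPM. Itgam, the CD11b integrin chain, stood at 29.3, 12.0 and 3.54 CPM in isotype and 7.04, 10.4 and 12.9 CPM in DTA-1 replicates 1, 2 and 3. Ctss, a protease of antigen processing, stood at 218.1, 77.6 and 23.1 CPM and at 25.4, 44.6 and 67.4 CPM, and Csf2ra, a chain of the GM-CSF receptor, at 19.4, 7.32 and 2.96 CPM and at 3.35, 4.24 and 5.39 CPM. For Itgam, Ctss and Csf2ra isotype replicate 3 was the lowest library, whereas Itgax was lowest in DTA-1 replicate 1.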
